A study of Mus musculus with 107 samples.

Results

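Livers with the most Cyp7a1 RNA were compared with livers with the least, among female F2 mice fed an atherogenic diet. Cyp7a1 encodes cholesterol 7α-hydroxylase, the rate-limiting enzyme of the classic pathway of bile acid synthesis. Of 107 arrays, 3 held no measured values, and of the other 104 mice 101 had a Cyp7a1 ratio inside the range the values can take. The groups were chosen by the measured Cyp7a1 values themselves, since mice were ranked by the ratio of the 1 probe annotated to Cyp7a1. The 26 highest formed the high-Cyp7a1 group and the 26 lowest the low-Cyp7a1 group, and 49 mice lay between them. The values of Cyp7a1 are therefore given only as a description, with no test.

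All mice were F2 females of a cross between the C57BL/6J and DBA/2J strains, all ate the atherogenic diet, and both groups share strain background, sex, diet and tissue. The labels speak of 111 mice and give neither the age of the mice nor the time of day of collection. Total liver RNA of each mouse was hybridised together with a pool that held an equal portion of RNA from every mouse. Each value is taken as the log ratio of mouse to pool and is printed here on the log2 scale, so that 0 is the level of the pool and 1 is 2 times that level. Such ratios do not compare the level of one gene with that of another, so marker genes of the liver could be compared between mice but not checked for presence. Because whole liver was measured, fewer cells of a type and less RNA per cell cannot be told apart.

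Hepatocytes turn cholesterol into bile acids by 2 routes. The classic route starts with CYP7A1, and the alternative route starts with CYP27A1, followed by CYP7B1. HSD3B7 acts in both, CYP8B1 directs the product towards cholic acid, and peroxisomal enzymes shorten the side chain before the bile acid is joined to taurine or glycine. Bile acids repress Cyp7a1 through the nuclear receptor FXR (Nr1h4), which induces the repressor SHP (Nr0b2), and through the intestinal hormone FGF15, which acts on FGFR4 with its co-receptor β-Klotho (Klb).

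The promoters of a bile acid enzyme that was higher and of a regulator that was lower in high-Cyp7a1 livers are shown. Both genes belong to this circuit, and both promoters hold a motif described below. Each runs from 250 bases before to 50 bases after the start of the gene, 5′ to 3′ on the strand of the gene, from RefSeq on GRCm38.p6. Cyp8b1 lies at chr9:121916256-121916555 on the minus strand and Nr0b2 at chr4:133553126-133553425 on the plus strand.
Cyp8b1: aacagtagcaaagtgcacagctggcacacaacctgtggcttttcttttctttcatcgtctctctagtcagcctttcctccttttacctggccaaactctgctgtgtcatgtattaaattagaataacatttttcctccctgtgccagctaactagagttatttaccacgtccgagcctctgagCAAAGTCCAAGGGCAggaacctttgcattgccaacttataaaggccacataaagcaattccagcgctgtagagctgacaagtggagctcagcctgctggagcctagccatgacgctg
Nr0b2: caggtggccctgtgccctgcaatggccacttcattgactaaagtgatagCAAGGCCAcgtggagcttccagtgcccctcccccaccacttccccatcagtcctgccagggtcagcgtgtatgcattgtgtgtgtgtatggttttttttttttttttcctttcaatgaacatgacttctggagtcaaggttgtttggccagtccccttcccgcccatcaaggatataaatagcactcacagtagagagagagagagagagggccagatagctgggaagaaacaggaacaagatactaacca
Capitals mark matches to CAAAGTCCA, a motif of HNF4α, and to CAAGGNCA, a motif of LRH-1 (Nr5a2), both searched on both strands. In the Cyp8b1 promoter both motifs were found, with their first bases at -67 and -60 from the start of the gene, and they overlap. The Nr0b2 promoter held the CAAGGNCA motif with its first base at -201. The promoter of Hsd3b7, another enzyme of this circuit that was higher, held neither motif and is not printed. Of 32817 mouse promoters of this length, 156 (0.475%) held CAAAGTCCA and 2203 (6.71%) held CAAGGNCA. Of 30 listed genes of bile acid synthesis, conjugation and transport, 15 had a promoter in the table, of which 1 held CAAAGTCCA and 2 held CAAGGNCA. A match is a description of the letters and not evidence of binding.

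Cyp7a1 had a lowest, median and highest log2 ratio of 0.55, 1.13 and 2.32 in high-Cyp7a1 mice, against -4.51, -1.63 and -0.99 in low-Cyp7a1 mice. The means were 1.35 ± 0.52 in high-Cyp7a1 mice and -1.93 ± 0.91 in low-Cyp7a1 mice (SD, n = 26 each), 3.28 apart on the log2 scale, or 9.69-fold. The ratio ran without a step across both group borders, as the plot by rank shows. The last mouse taken into the high group had 0.5475 and the next mouse 0.5459, and at the other end the first mouse of the low group had -0.99 and its neighbour outside -0.97. In all, 43 of the 101 mice lay above the pool and 58 below it. In 3 further mice the probe stood at the lowest value the file holds, and they were not ranked.

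**Figure D1:**
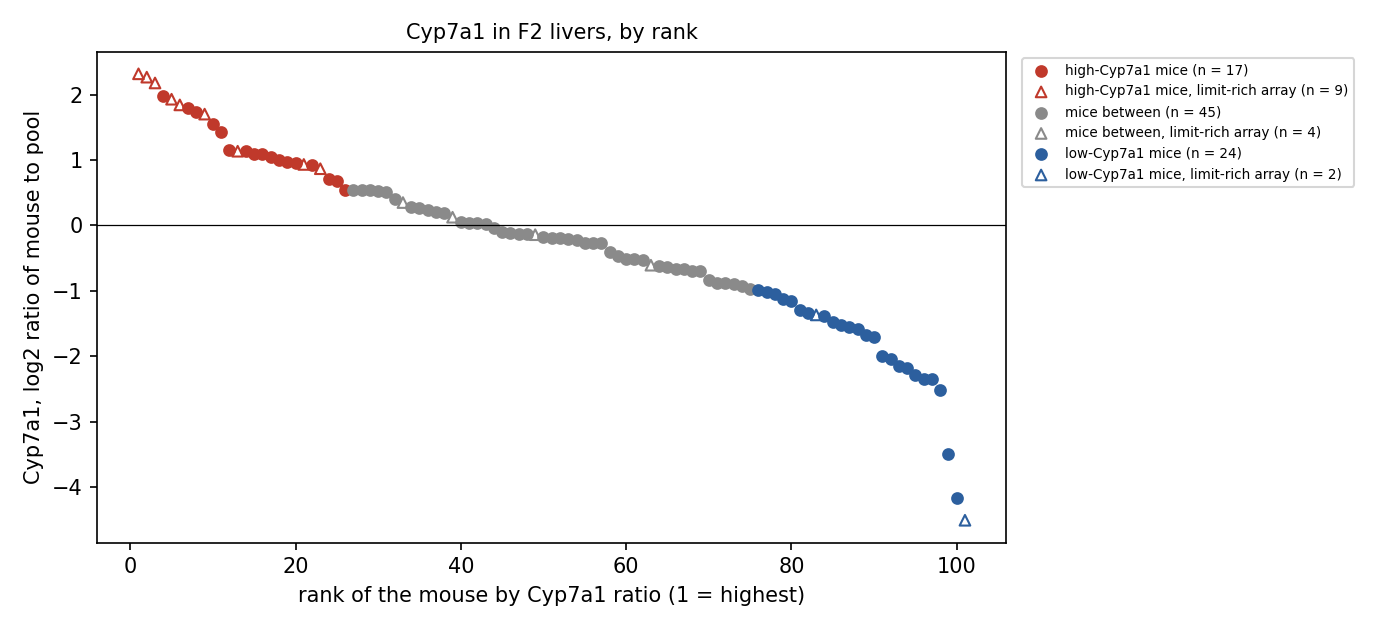
Cyp7a1 log2 ratio of mouse to pool (vertical axis) against rank (horizontal axis, 1 is the highest) in 101 mice, with colours for the 26 high-Cyp7a1, 49 middle and 26 low-Cyp7a1 mice and open triangles for arrays with over 700 values at the limits. The curve has no gap at either group border, and the 3 lowest mice stand apart below -3.

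Among the ranked mice, the number of values at the limits of an array and the mouse number in the labels both moved with Cyp7a1. Deposited values stop at -2 and 2 on their own scale, and 18 of the 104 arrays held over 700 values at those limits, called limit-rich here. They made up 9 of the 26 high-Cyp7a1 arrays and 2 of the 26 low-Cyp7a1 arrays, including the array of the lowest ratio. The 3 mice not ranked because their Cyp7a1 probe stood at the lowest value were on limit-rich arrays as well. Limit-rich arrays thus lay at both ends of the Cyp7a1 range. The median Cyp7a1 log2 ratio was 0.93 on the 15 limit-rich arrays with a value and -0.27 on the other 86. Mouse numbers ran from 3 to 117 with a median of 46.5 in high-Cyp7a1 mice, and from 20 to 157 with a median of 115 in low-Cyp7a1 mice. As a description over 101 mice, Cyp7a1 and mouse number had Pearson r = -0.371 and Spearman rho = -0.415, and r was -0.359 without the 2 mice farthest from the median number. On the 86 arrays that were not limit-rich, r was -0.459 and rho -0.501, and r was -0.451 without the 2 farthest mice. The labels do not say what the mouse number marks. Its part in the results below was not tested beyond the fits that carry it as a covariate or split the mice at its median.

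**Figure D2:**
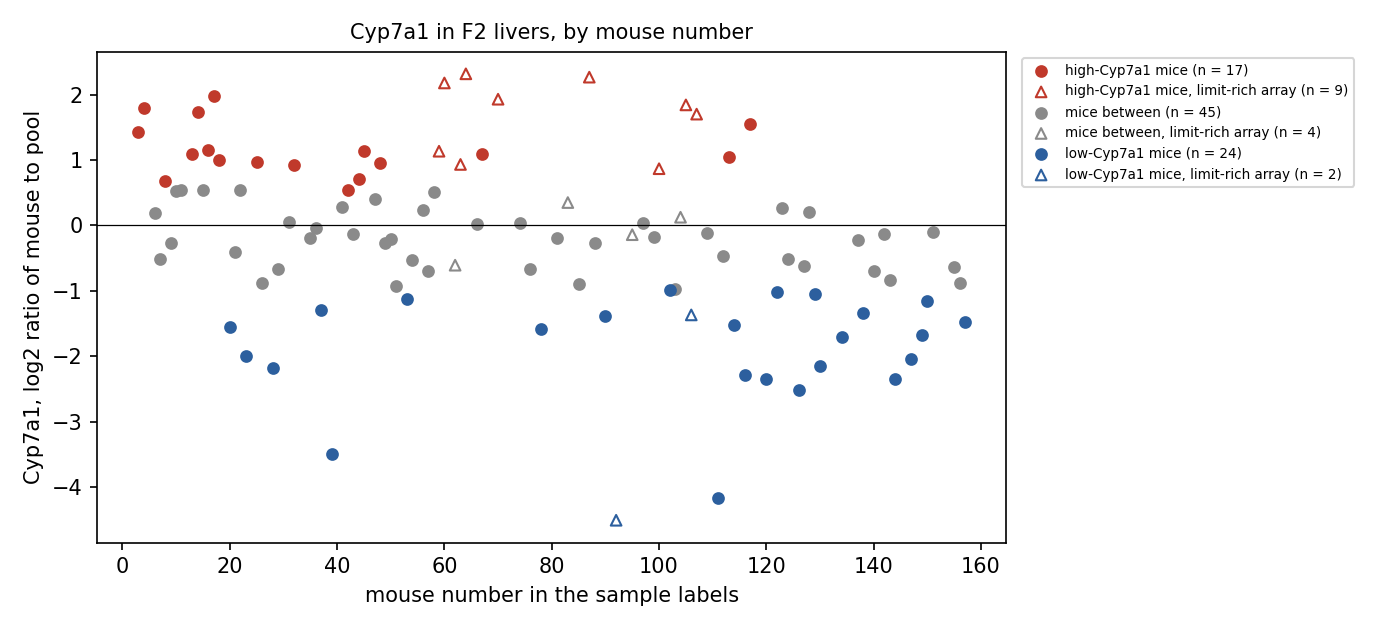
Cyp7a1 log2 ratio of mouse to pool (vertical axis) against the mouse number in the labels (horizontal axis), coloured by Cyp7a1 group, with open triangles for limit-rich arrays. High-Cyp7a1 mice lie mostly at low numbers (median 46.5) and low-Cyp7a1 mice at high numbers (median 115).

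Of 5356 pairs of arrays, 7 correlated below -0.3 over all probes, and these pairs held 10 arrays. Such a correlation does not by itself show a reversed ratio. The direction of these 10 arrays was not tested and is not settled. Of them, 6 belong to the 52 mice compared, 3 in each group. As they were picked for running against other arrays, leaving them out is unlike leaving out 6 arrays taken at random. If all arrays ran the other way, the high-Cyp7a1 and low-Cyp7a1 mice would change places, and each difference relative to Cyp7a1 would keep its size and sign. Beside the main counts below, 4 alternative fits are given. They leave out the limit-rich arrays, carry mouse number as a covariate, leave out the 6 arrays, or carry the first principal component over 10151 genes, which held 27.9% of the variance and correlated with Cyp7a1 at r = -0.382 (rho = -0.351) as a description over mice.

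Of 12314 other genes, 1087 (8.83%) were higher and 684 (5.55%) lower in high-Cyp7a1 livers at a Benjamini-Hochberg adjusted p under 0.05 (limma). Most of these differences were small. The median size of a called difference was 0.34 on the log2 scale, and only 31 genes differed more than 2-fold, 18 of them higher and 13 lower. The median difference over all genes was 0.01. Of all calls 61.4% were higher genes, and 47.8% when arrays were centred and scaled to one SD (1102 higher, 1204 lower). Without limit-rich arrays 841 genes (6.83%) were higher and 467 (3.79%) lower. With mouse number as a covariate the counts were 723 (5.87%) and 519 (4.21%). Without the 6 arrays in negatively correlated pairs they were 291 (2.36%) and 88 (0.715%), and with the first principal component 120 (0.975%) and 52 (0.422%). When mice were split at the median number of 70.5, the 20 high-Cyp7a1 and 6 low-Cyp7a1 mice up to it gave 298 higher and 113 lower genes. The 6 high-Cyp7a1 and 20 low-Cyp7a1 mice above it gave 0 and 0 in limma, with 717 higher and 477 lower genes at an unadjusted p under 0.05.

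Enzymes of bile acid synthesis other than Cyp7a1 were higher as well. Of 12 measured enzymes, 8 rose in high-Cyp7a1 livers and none fell, and the median difference over the 12 was 0.47 on the log2 scale. Cyp8b1, the sterol 12α-hydroxylase of cholic acid synthesis, had a lowest, median and highest log2 ratio of -0.72, 0.18 and 2.55 in high-Cyp7a1 mice and -1.19, -0.55 and 0.48 in low-Cyp7a1 mice. The groups overlapped, and 23 of 26 high-Cyp7a1 mice lay above the median of the low-Cyp7a1 mice. The difference was 0.93 ± 0.18 (SE), or 1.91-fold (limma adjusted p = 7.1e-04).

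Hsd3b7, the 3β-hydroxysteroid dehydrogenase that acts after 7α-hydroxylation, ranged from -0.84 through a median of 0.28 to 0.79 in high-Cyp7a1 mice and from -2.16 through -0.37 to 0.42 in low-Cyp7a1 mice. Its difference was 0.68 ± 0.15 (limma adjusted p = 0.0017), and 25 of 26 high-Cyp7a1 mice exceeded the low-Cyp7a1 median. Amacr, the racemase that prepares the side chain for shortening, ranged from -0.51 through 0.31 to 0.66 in high-Cyp7a1 mice and from -2.01 through -0.12 to 0.43 in low-Cyp7a1 mice. The highest values of the groups were close to each other, while the low-Cyp7a1 mice reached further down. Amacr differed by 0.62 ± 0.13 (limma adjusted p = 0.00142).

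Both enzymes of the alternative route rose too. Cyp27a1, the mitochondrial sterol 27-hydroxylase, ranged from -0.82 through 0.13 to 0.65 in high-Cyp7a1 mice and from -1.41 through -0.31 to 0.28 in low-Cyp7a1 mice, with a difference of 0.38 ± 0.10 (limma adjusted p = 0.00964). Cyp7b1, the oxysterol 7α-hydroxylase, ranged from -0.76 through 0.38 to 1.31 in high-Cyp7a1 mice and from -2.10 through -0.37 to 0.91 in low-Cyp7a1 mice, with a difference of 0.72 ± 0.17 (limma adjusted p = 0.0041). The remaining 3 that rose were Slc27a2, an acyl-CoA synthetase (0.63), Hsd17b4, the peroxisomal bifunctional enzyme (0.43), and Acot8, a peroxisomal thioesterase (0.35). Cyp39a1, the 24-hydroxycholesterol 7α-hydroxylase, differed by 0.01, Acox2, the branched-chain acyl-CoA oxidase, by 0.01, Scp2, the sterol carrier with thiolase activity, by -0.13, and Akr1c6 by 0.52, and none of these 4 passed. The Scp2 probe held the same value as the albumin probe, within 0.001 on the deposited scale, on 66 of 104 arrays, as did probes of 22 genes in all on 55 or more arrays, and none of these genes was called. With albumin itself, 8 of them belong to the lists described here, where they count as measured genes that did not pass. The count of 8 stayed at 8 without limit-rich arrays and was 5 with mouse number, 3 without the 6 arrays and 1, Cyp8b1, with the first principal component.

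**Figure D3:**
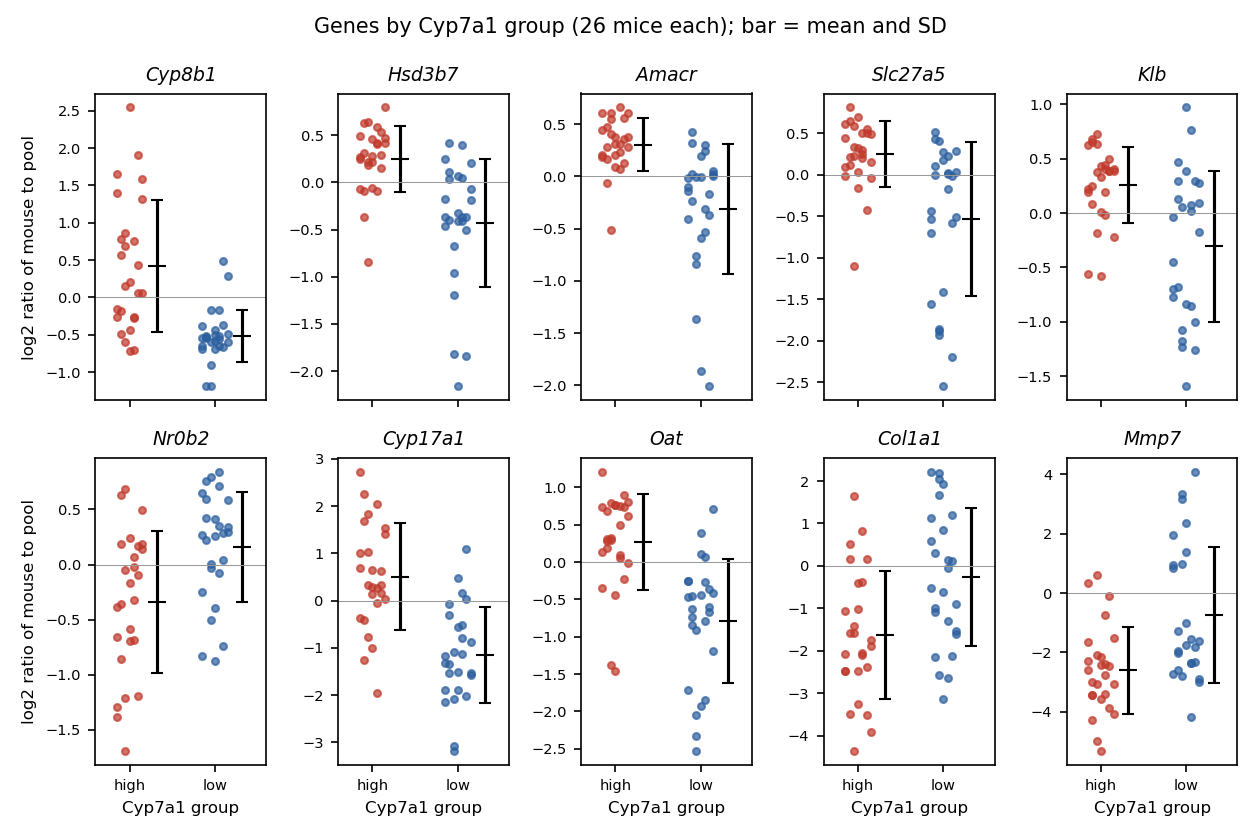
Log2 ratio of mouse to pool (vertical axes) of 10 genes in the 26 high-Cyp7a1 mice (left of each panel) and the 26 low-Cyp7a1 mice (right), 1 point per mouse, with the mean and SD as a bar. In all 10 genes the groups overlap, and in Slc27a5, Hsd3b7 and Amacr the low-Cyp7a1 mice reach further down.

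Of 10 measured genes of bile acid conjugation and transport, 4 rose in high-Cyp7a1 livers and none fell, with a median difference of 0.19 over the 10. Slc27a5, the ligase that activates bile acids, ranged from -1.10 through 0.27 to 0.81 in high-Cyp7a1 mice and from -2.55 through -0.10 to 0.51 in low-Cyp7a1 mice, a difference of 0.78 ± 0.19 (limma adjusted p = 0.00621). Baat, which joins bile acids to taurine or glycine, ranged from -0.43 through 0.20 to 0.76 in high-Cyp7a1 mice and from -2.15 through -0.16 to 0.42 in low-Cyp7a1 mice, a difference of 0.54 ± 0.13 (limma adjusted p = 0.00439). In both genes the lowest mice of the low-Cyp7a1 group lay below every high-Cyp7a1 mouse, while the upper ends of the groups overlapped. The uptake carriers Slc10a1 (NTCP, 0.69) and Slco1b2 (0.79) also rose. The canalicular export pump Abcb11 (0.04), the phospholipid flippase Abcb4 (0.23), the basolateral pump Abcc3, the carriers Slco1a1 (-0.03) and Slco1a4 (0.05) and the epoxide hydrolase Ephx1 (0.15) did not pass, and Abcc3 had a fold of 0.997. The 4 calls held without limit-rich arrays, and 2 were left with mouse number and none without the 6 arrays or with the first principal component.

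Among 23 measured regulators of Cyp7a1, 3 rose and 2 fell in high-Cyp7a1 livers, and the median difference was 0.06. These counts are close to the shares over all genes (8.83% higher, 5.55% lower), so the genes below are described one by one and not as a group. Nr0b2, which encodes the repressor SHP, had a lowest, median and highest log2 ratio of -1.69, -0.24 and 0.69 in high-Cyp7a1 mice and -0.87, 0.28 and 0.84 in low-Cyp7a1 mice. The groups overlapped broadly, although 23 of 26 high-Cyp7a1 mice lay below the low-Cyp7a1 median. The difference was -0.50 ± 0.16 (limma adjusted p = 0.0278). Mafg, a small MAF protein known in mice as a repressor of bile acid synthesis genes, fell by 0.24 (limma adjusted p = 0.0268).

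Klb, the FGF15 co-receptor, ranged from -0.58 through 0.38 to 0.73 in high-Cyp7a1 mice and from -1.59 through -0.10 to 0.97 in low-Cyp7a1 mice. The highest single value thus belonged to a low-Cyp7a1 mouse. The difference was 0.57 ± 0.15 (limma adjusted p = 0.00947), while the receptor Fgfr4 differed by 0.06 and did not pass. Nr1i3, the xenobiotic receptor CAR, rose by 0.45 and Nr1h3, the oxysterol receptor LXRα, by 0.26. The bile acid receptor Nr1h4 (0.27), the activators Nr5a2 (0.19), Hnf4a (-0.04) and Foxa2 (0.26), and the coactivator Ppargc1a (-0.06) did not pass. None of the 3 regulators that rose remained called with mouse number as a covariate, without the 6 arrays or with the first principal component. Mafg had an adjusted p of 0.18 with mouse number, 0.12 without the 6 arrays and 0.027 with the first principal component. Nr0b2 had an adjusted p of 0.064 without limit-rich arrays, 0.073 with mouse number, 0.049 without the 6 arrays and 4.8e-04 with the first principal component.

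Genes that use or supply cholesterol were less uniform. Of 12 measured genes of cholesterol synthesis, 3 rose and 1 fell in high-Cyp7a1 livers, with a median difference of 0.16. The sterol isomerase Ebp (0.53, limma adjusted p = 0.00223), the sterol desaturase Sc5d (0.72, 0.00288) and Hsd17b7 (0.49, 0.00665), enzymes of late steps, were higher, and lanosterol synthase Lss (-0.20, 0.0248) was lower. One of the 2 Lss probes had an adjusted p of 0.0639 and the other 0.305 in the test of single probes. The counts of higher and lower genes were 4 and 1 with mouse number, 2 and 0 without the 6 arrays and 1 and 0 with the first principal component. These counts include other genes of the list. Ebp and Sc5d stayed called with mouse number and without the 6 arrays, while Hsd17b7 did not (limma adjusted p = 0.071 and 0.052). With the first principal component none of Ebp, Sc5d, Hsd17b7 and Lss was called. Among 8 SREBP2 targets and genes of cholesterol uptake, trafficking and esterification 1 rose, Lcat (0.55), which esterifies plasma cholesterol. Among 10 LXR targets and sterol exporters Nr1h3 rose and the transporter Abcg1 fell (-0.71). The shares in both lists were near those over all genes. None of these 3 genes stayed called with mouse number, without the 6 arrays or with the first principal component, and Abcg1 was then at -0.33, -0.48 and -0.01. Of 12 apolipoproteins and lipoprotein assembly genes 3 rose and none fell. Apoc3, an inhibitor of triglyceride clearance, ranged from -0.16 through 0.29 to 1.14 in high-Cyp7a1 mice and from -1.05 through -0.31 to 0.64 in low-Cyp7a1 mice (difference 0.58 ± 0.11, limma adjusted p = 7.2e-04), and all 26 high-Cyp7a1 mice lay above the low-Cyp7a1 median. The count of 3 was 4 with mouse number, 2 without the 6 arrays and 0 with the first principal component, where the adjusted p of Apoc3 was 0.081.

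Fatty acid oxidation genes and targets of PPARα, the receptor that induces them, were higher in 7 of 16 and lower in none, with a median difference of 0.55. Cpt1a, which controls entry of fatty acids into mitochondria, ranged from -0.54 through 0.30 to 0.88 in high-Cyp7a1 mice and from -1.51 through -0.38 to 0.30 in low-Cyp7a1 mice. Its difference was 0.57 ± 0.11 (limma adjusted p = 7.2e-04), and 23 of 26 high-Cyp7a1 mice exceeded the low-Cyp7a1 median. The dehydrogenases Acadm (0.58) and Acadl (0.51) and the trifunctional protein subunit Hadhb (0.54) rose, and Ppara itself (0.33) did not pass. The 7 calls became 5 without limit-rich arrays, 4 with mouse number, 1 without the 6 arrays and 0 with the first principal component. Of 12 genes of fatty acid synthesis 2 rose, beside 8.83% higher over all genes. These were Elovl5 (0.84) and Fads2 (0.59), which lengthen and desaturate polyunsaturated fatty acids. Neither stayed called with mouse number (adjusted p = 0.057 and 0.077) or with the first principal component, and Fads2 did not without the 6 arrays. Of 7 genes of gluconeogenesis and fasting 3 rose, with Fbp1, fructose-1,6-bisphosphatase, at 0.77 ± 0.16 (limma adjusted p = 0.00129) and 26 of 26 high-Cyp7a1 mice above the low-Cyp7a1 median. The 3 calls became 1 without limit-rich arrays, 2 with mouse number, 2 without the 6 arrays and 0 with the first principal component.

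Liver genes with higher expression in females than in males had the largest median difference of the 38 lists described. Of 8 measured, 5 rose in high-Cyp7a1 livers and none fell, at 0.79 over the 8. Cyp17a1, a steroid 17α-hydroxylase, ranged from -1.95 through 0.33 to 2.73 in high-Cyp7a1 mice and from -3.17 through -1.25 to 1.09 in low-Cyp7a1 mice. The groups overlapped over a wide range, and 24 of 26 high-Cyp7a1 mice exceeded the low-Cyp7a1 median. The difference was 1.66 ± 0.29, or 3.15-fold (limma adjusted p = 2.02e-04), and the adjusted p was 0.0057 with mouse number and 0.0047 with the first principal component.

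Sult3a1, a sulfotransferase, differed by 2.13 ± 0.69 (limma adjusted p = 0.0309) with 25 high-Cyp7a1 mice, since 1 array had no usable value. The peroxisomal oxidase Hao2 rose by 1.46 and the transcription factor Cux2 by 0.94. Cyp17a1 was the 1 gene of the 8 still called with mouse number, and the count was also 1 without the 6 arrays and with the first principal component. Of 7 genes higher in males, Cyp7b1 rose and Cyp2d9 fell (-0.61), beside 8.83% higher and 5.55% lower over all genes. Cyp2d9 was at -0.31 with mouse number and not called, and neither gene was called without the 6 arrays or with the first principal component.

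Of 7 genes of pericentral hepatocytes, those around the central vein where Cyp7a1 is also expressed, 4 rose and none fell, with a median difference of 0.68. Oat, ornithine aminotransferase, ranged from -1.46 through 0.32 to 1.21 in high-Cyp7a1 mice and from -2.52 through -0.62 to 0.71 in low-Cyp7a1 mice (difference 1.06 ± 0.20, 2.08-fold, limma adjusted p = 4.94e-04). Rhbg, an ammonia transporter, differed by 0.75 ± 0.14 (limma adjusted p = 3e-04), and the glutamate carrier Slc1a2 (0.68) and glutamine synthetase Glul (0.56) rose. Oat and Rhbg kept their calls with mouse number and without the 6 arrays, and Rhbg with the first principal component. Of 8 genes of the opposite, periportal, zone the urea cycle enzymes Asl (0.63) and Ass1 (0.41) and the histidine ammonia-lyase Hal (0.56) rose and Sox9 (-0.59) fell. Of these 4 calls Asl alone was left with mouse number or without the 6 arrays, and none with the first principal component.

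Genes of stellate cells and collagens stood on the other side. Of 18 measured, 9 fell in high-Cyp7a1 livers and none rose, with a median difference of -0.55. Col1a1, a chain of type I collagen, ranged from -4.35 through -1.82 to 1.65 in high-Cyp7a1 mice and from -3.13 through -0.28 to 2.22 in low-Cyp7a1 mice. The groups overlapped over most of their range, and 21 of 26 high-Cyp7a1 mice lay below the low-Cyp7a1 median. The difference was -1.37 ± 0.42, a fold of 0.388 (limma adjusted p = 0.0255).

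The basement membrane collagens Col4a1 (-0.79) and Col4a2 (-0.61) and Col5a2 (-0.41) fell too, and 1 of the 2 Col5a2 probes did not pass alone (adjusted p = 0.198). The mean log2 ratio over the 18 genes ranged from -1.37 through -0.57 to 0.90 in high-Cyp7a1 mice and from -1.05 through -0.09 to 1.10 in low-Cyp7a1 mice. The 9 calls became 7 without limit-rich arrays and 0 without the 6 arrays or with the first principal component. With mouse number none of the 18 was lower and 1 was higher. When the 2 highest and 2 lowest mice were left out, none was called.

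Markers of bile duct cells (cholangiocytes) fell in 5 of 10 and rose in none, with a median difference of -0.56. Mmp7, a matrix protease, ranged from -5.31 through -2.67 to 0.61 in high-Cyp7a1 mice and from -4.16 through -1.69 to 4.10 in low-Cyp7a1 mice (difference -1.87 ± 0.52, limma adjusted p = 0.0143). The SD of Mmp7 was 1.48 in high-Cyp7a1 mice and 2.30 in low-Cyp7a1 mice, and the highest values belonged to low-Cyp7a1 mice. Cd24a (-1.01), Epcam (-1.11, with 25 high-Cyp7a1 mice) and Sox9 (-0.59) fell. The mean over the 10 markers ranged from -1.99 through -1.05 to 0.03 in high-Cyp7a1 mice and from -1.36 through -0.75 to 2.21 in low-Cyp7a1 mice. The 5 calls became 3 without limit-rich arrays, 1 with mouse number, and 0 without the 6 arrays or with the first principal component. Whether these marker levels have a part in the higher hepatocyte genes was not tested.

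**Figure D4:**
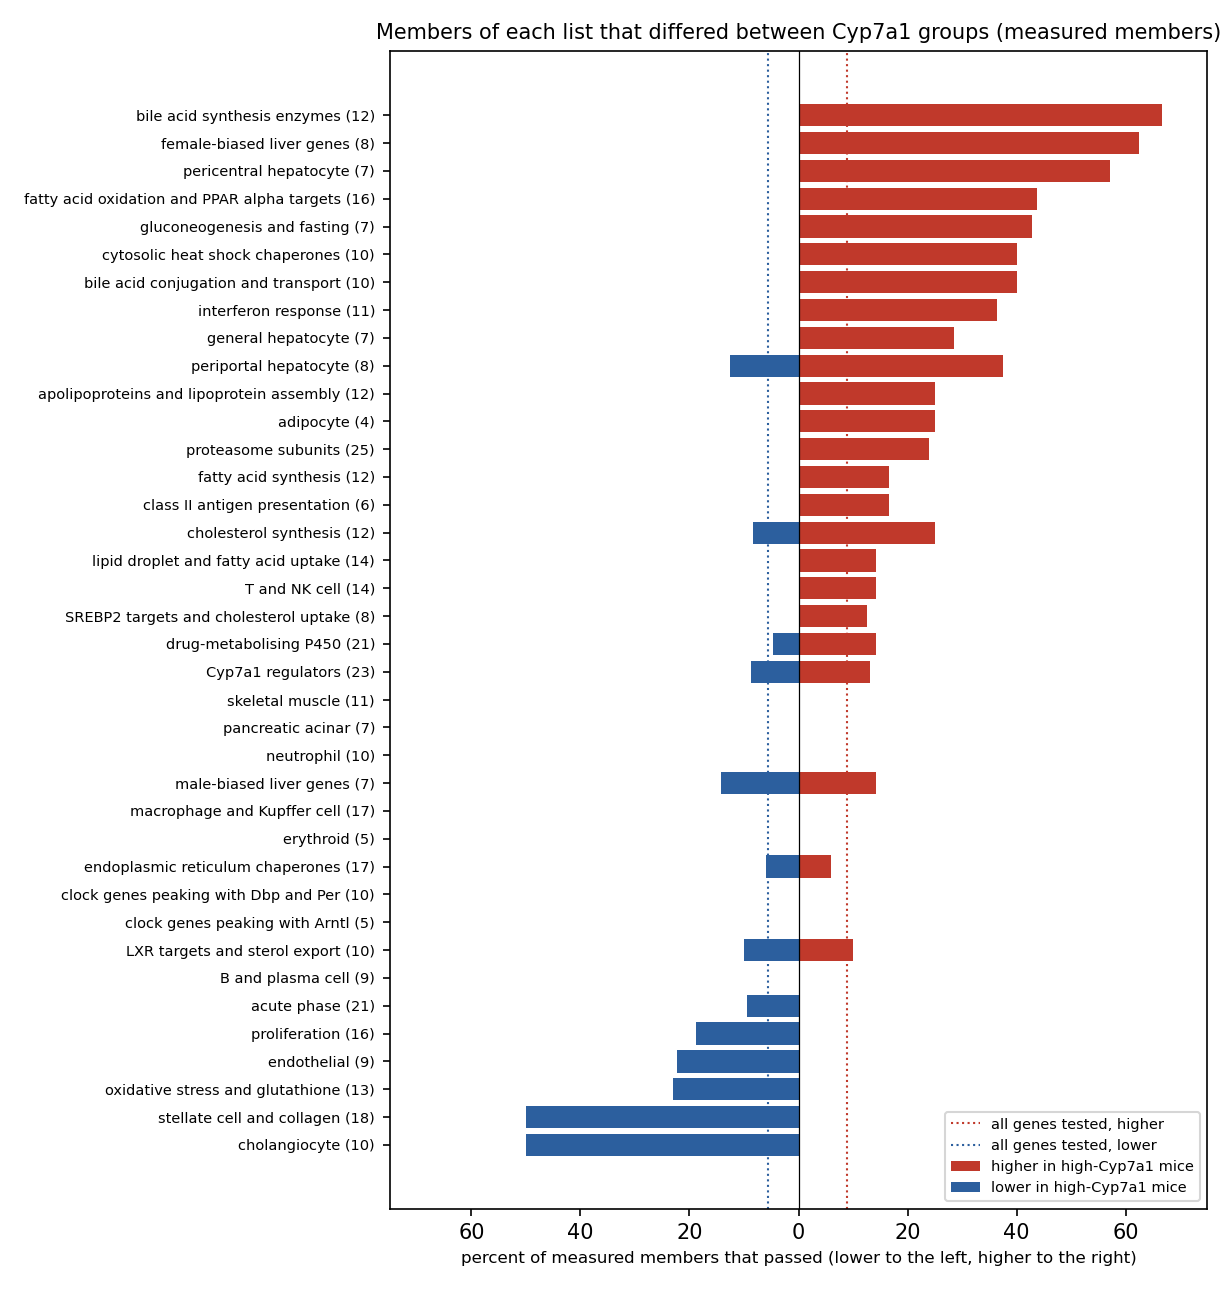
Percent of the measured members of each list (member number in brackets) that passed, lower to the left and higher to the right, with dotted lines for all genes (5.55% lower, 8.83% higher). Bile acid synthesis, female-biased and pericentral genes reach furthest to the right, and stellate and bile duct markers furthest to the left.

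The 24 genes of smallest p, 12 in each direction, belonged to none of the lists. Tstd3, a thiosulfate sulfurtransferase domain protein, ranged from -0.10 through 0.26 to 0.88 in high-Cyp7a1 mice and from -0.81 through -0.29 to 0.25 in low-Cyp7a1 mice. All 26 high-Cyp7a1 mice lay above the low-Cyp7a1 median, although the groups overlapped. The difference was 0.61 ± 0.07, or 1.53-fold (limma adjusted p = 7.71e-08). Tstd3 lies on chromosome 4, as Cyp7a1 does, in GRCm38.p6. Fdx1, ferredoxin, which carries electrons to mitochondrial P450 enzymes such as CYP27A1, ranged from -0.01 through 0.49 to 0.88 in high-Cyp7a1 mice and from -0.76 to 0.50 in low-Cyp7a1 mice, with a difference of 0.51 ± 0.07 (limma adjusted p = 2.67e-05). Fam89a (1.17) and 3021401C12Rik (0.84) had the largest differences among the 12 higher genes of smallest p, which also held 1700012D01Rik, 2610528J11Rik, Lgals8, Dmd, Mmachc, As3mt, Tgds and Dmac2l. Over all 101 mice 3021401C12Rik was the gene most like Cyp7a1, with Pearson r = 0.606.

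Among the 12 lower genes of smallest p, Il1r1, the receptor of interleukin 1, a cytokine known to repress CYP7A1 in human hepatocytes, had the largest difference. It ranged from -0.94 through -0.33 to 0.30 in high-Cyp7a1 mice and from -1.07 through 0.29 to 2.10 in low-Cyp7a1 mice, and 25 of 26 high-Cyp7a1 mice lay below the low-Cyp7a1 median. The difference was -0.72 ± 0.13, a fold of 0.607 (limma adjusted p = 3.57e-04). Rabep2, an endosomal rabaptin, had the smallest p of the lower genes (-0.41 ± 0.07, limma adjusted p = 1.2e-04). Clk3, Tmem141, 4933439C10Rik, Nxf1, Notch4, Cemip2, Sipa1, Tacc1, 2610024B07Rik and Osbpl5 completed the 12, with differences from -0.63 to -0.27. All 24 genes stayed called without limit-rich arrays, with mouse number and without the 6 arrays, and 21 of the 24 with the first principal component, which ended the calls of Sipa1, Tacc1 and 2610024B07Rik. Smaller sets of mice kept fewer of the 24. The mice numbered up to the median kept 13, those above it 0, and the 10 highest and 10 lowest mice 3.

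The 10 measured genes nearest to Cyp7a1 on chromosome 4, 5 on each side in GRCm38.p6, gave no call in limma, and 2 of them, Penk and Clvs1, had an unadjusted p under 0.05. Their differences ran from -0.23 (Sdcbp) to 0.33 (Car8), and the smallest adjusted p was 0.0563 (Clvs1, 0.15). Across the 19 autosomes the share of genes that were higher ran from 6.97% to 11.3% and the share that were lower from 3.96% to 8.27%.

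The 49 mice between the groups played no part in the choice of the extremes, and in them the slope of each gene on Cyp7a1 was measured. Both quantities still come from the same arrays, so anything that moves many probes of an array moves both. Of the 1087 higher genes, 996 (91.6%) had a positive slope in the middle mice, 301 of them with an unadjusted p under 0.05, and no gene had a negative slope at that level. Of the 684 lower genes, 614 (89.8%) had a negative slope, 83 of them with an unadjusted p under 0.05, and no gene had a positive one. Over all genes 51.8% of slopes were positive. After adjustment over all genes 1 gene rose, which is 0.00812% of those tested, and none fell in limma, with 678 rising and 381 falling at an unadjusted p under 0.05. That gene was 2610528J11Rik, with a slope of 0.41 log2 units per log2 unit of Cyp7a1 (limma adjusted p = 0.00767).

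Of the bile acid synthesis enzymes 11 of 12 had a positive slope in the middle mice, with a median of 0.20. Amacr had a slope of 0.37 (unadjusted p = 0.0149) and Cyp27a1 of 0.23 (unadjusted p = 0.00657), while Cyp8b1, the enzyme with the largest difference between the extremes, had a slope of 0.04 (unadjusted p = 0.846). Nr0b2, lower in high-Cyp7a1 mice, had a slope of 0.19 (unadjusted p = 0.328). Fdx1 had a slope of 0.38 (unadjusted p = 1.74e-05) and Oat of 0.75 (unadjusted p = 0.00123). Of the 18 stellate and collagen genes 16 had a negative slope and of the 10 bile duct markers 8. Not every list kept its direction. None of the proliferation genes or T and NK cell markers called in the extremes, described below, kept its sign.

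**Figure D5:**
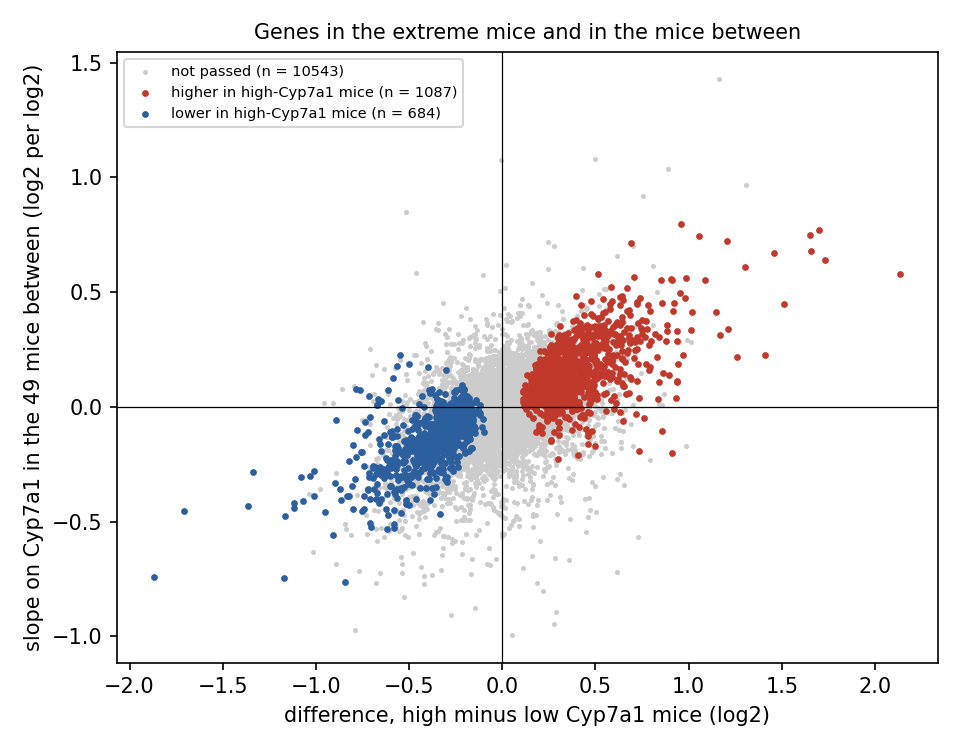
Difference between high-Cyp7a1 and low-Cyp7a1 mice on the log2 scale (horizontal axis) against the slope on Cyp7a1 in the 49 middle mice, log2 per log2 (vertical axis), 1 point per gene, coloured by call in the extremes. Most of the 1087 higher genes lie above 0 and most of the 684 lower genes below 0 on the vertical axis.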

How the data were processed

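RNA of each liver and of the pool was measured on 2-colour arrays, per the labels. The values deposited by the authors are taken as log10 ratios of mouse to pool and printed as log2. The labels give neither log base nor direction, and nothing in them names dyes, batches or a normalization. Base 10 was taken since the limits of the values, -2 and 2, are then 100-fold, and another base would rescale every difference and keep every call. Values at these limits (12821 and 13265, 1.07%) were treated as missing, beside 1.69% already missing. Of 23536 probes, 14744 had 1 gene symbol, 18 had several and 8774 had none here. The 13238 probes with 1 symbol and values on at least 90% of 104 arrays were averaged into 12315 genes, of which 11968 were named through the GRCm38.p6 gene table. Array medians lay between -0.09 and 0.07 log2. Other scalings moved the median difference of all genes by no more than 0.02.

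The 26 and 26 mice were compared with limma 3.58.1 (R 4.3.3), with no covariate, and p-values were adjusted by Benjamini-Hochberg over 12314 genes with a threshold of 0.05. The fit was tested on simulated data, made by shuffling the arrays between the groups and adding known shifts to some genes. Shuffling removes any link of group to mouse number, limit-rich arrays or negatively correlated pairs. That test therefore cannot show how these affect the calls. Mice are the replicates, each with 1 array, which leaves measurement error and variation among mice joined. Alternatives changed the mice, the filter, the scaling, the variance model and the covariates. Genes named are the 12 of smallest p in each direction, members of the lists of bile acid synthesis, conjugation and transport and of Cyp7a1 regulators, up to 4 members of smallest p of each other list, the 5 measured neighbours of Cyp7a1 on each side, and the gene of largest r. The 38 lists held 560 entries, of which 442 were measured. The groups, members and lists were chosen with earlier results of these data known.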

Additional observations from a re-analysis of the deposited data

How the results depend on the processing

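The count of 1087 higher genes stayed within 1.5 times under 13 settings listed for it, among them quantile normalization and 35 mice a group, but not under the following. It was 9 with the 10 highest and 10 lowest mice, 120 with the first principal component, 602 without the 2 highest and 2 lowest mice, 291 without arrays in pairs with r under -0.3, and 1936 as a slope over all mice. The 684 lower genes became 2, 52, 282, 88 and 1364 under those 5 settings, and 1204 with arrays centred and scaled. Settings chosen after seeing the data gave 723 higher genes with mouse number as a covariate, 298 higher and 113 lower up to the median number and 0 and 0 above it, where limma at an unadjusted p under 0.05 gave 717 and 477. Leaving out each of the 52 mice gave 832 to 1358 higher and 445 to 950 lower genes, and only mouse 78 moved a count by over 1.5 times (445 lower). The 1 gene rising in the middle mice became 3 with limit-rich arrays as a block, and those rising or falling under the other settings were 1 and 0. Of 113 called genes that could be named, 86 stayed called without limit-rich arrays, 57 with mouse number, 45 without the arrays in negative pairs and 28 with the first principal component, under which Cyp2c40 reversed (-0.0038). The cause of these changes was not tested. No paired analysis was possible because the labels give 1 group of mice and no replicate numbers shared between groups. The number of arrays limits precision, and spot brightness was not used here.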

Other observations

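Some stress and immune genes also differed between high-Cyp7a1 and low-Cyp7a1 livers, beside 8.83% higher and 5.55% lower over all genes. Of 11 interferon response genes 4 rose and none fell, led by Ifit1, an antiviral effector (difference 0.69 ± 0.14, limma adjusted p = 7.47e-04). Ifit1 ranged from -0.83 through a median of 0.29 to 0.96 in high-Cyp7a1 mice and from -1.38 through -0.53 to 0.83 in low-Cyp7a1 mice. Of 13 genes of oxidative stress and glutathione, 3 fell and none rose. Gstm3, a glutathione transferase, ranged from -4.08 through -2.35 to 2.00 in high-Cyp7a1 mice and from -3.32 through -0.09 to 2.07 in low-Cyp7a1 mice (difference -1.71 ± 0.40, limma adjusted p = 0.00388), and Gstm1 (-0.54) and heme oxygenase Hmox1 (-0.57) fell too. Of 21 acute phase genes, ceruloplasmin Cp (-0.39) and the lipopolysaccharide co-receptor Cd14 (-0.91) fell and none rose, a count close to the share over all genes. Of 16 proliferation genes, Cdk1 (-0.43), Cdc20 (-0.76) and Mki67 (-0.78) fell. In the middle mice their slopes were 0.05, 0.07 and 0.08, and 10 of the 16 slopes were positive. The mean over the 16 genes had a median of -0.16 in low-Cyp7a1 mice and reached 3.16 there. With mouse number as a covariate 1 interferon gene, no oxidative stress gene and no acute phase gene was called, and 5 proliferation genes were lower. Cp was then at -0.18 and Cd14 at -0.62. Without the 6 arrays in negatively correlated pairs 1 interferon gene and none of the other 3 lists were called, and with the first principal component 1 oxidative stress gene alone. That gene was not Gstm3, Gstm1 or Hmox1.

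Of 25 proteasome subunits 6 rose and none fell, with a median difference of 0.14, and all 25 differences were positive. The ATPase subunit Psmc6 differed by 0.63 ± 0.11 (limma adjusted p = 2.3e-04). Of 10 cytosolic and mitochondrial heat shock chaperones 4 rose, led by the co-chaperone Dnaja1 (0.79 ± 0.16, limma adjusted p = 0.00133). The mitochondrial chaperones Hspd1 (0.33) and Hspe1 (0.30) were among the 4. The counts of proteasome and heat shock genes that rose were 1 and 2 with mouse number. They were 1 and 1 without the 6 arrays, and 1 and 0 with the first principal component. Of 17 genes of endoplasmic reticulum chaperones and stress, Pdia4 rose (0.30) and Atf4, a transcription factor and not a chaperone, fell (-0.21). These shares were near those over all genes (8.83% higher, 5.55% lower). Of 21 drug-metabolising P450 genes Cyp2c37 (0.96), Cyp2b9 (0.64) and Cyp2c40 (0.75) rose and Cyp2d9 (-0.61) fell. Of 14 lipid droplet and fatty acid uptake genes G0s2 (0.88) and Mogat1 (0.43) rose. None of the genes named from these 3 lists stayed called with mouse number, without the 6 arrays or with the first principal component, and Cyp2d9 was at -0.31 with mouse number. No clock gene passed, neither among 5 that peak with Arntl (Arntl itself -0.50) nor among 10 that peak with Dbp and Per genes (Dbp 0.81, limma adjusted p = 0.136), with 0 and 4 genes at an unadjusted p under 0.05.

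Markers of blood cells gave few calls, beside 8.83% higher and 5.55% lower over all genes. None of 17 macrophage markers passed, although 16 differences were negative and the median was -0.47 (Lgals3 -1.03, limma adjusted p = 0.0508), and 8 had an unadjusted p under 0.05. None of 10 neutrophil, 9 B and plasma cell or 5 erythroid markers passed in limma, with 4, 0 and 0 at an unadjusted p under 0.05. Of 14 T and NK cell markers Klrd1 (0.30) and Cd8b1 (0.24) rose, and of 6 class II genes H2-DMa rose (0.13), counts close to the share over all genes. In the middle mice Klrd1 and Cd8b1 had slopes of -0.225 and -0.055, and 13 of the 14 slopes were negative. Of 9 endothelial markers Lyve1 (-0.84) and Flt1 (-0.39) fell, and of 4 adipocyte markers Lipe rose (0.29). Lyve1 was at -0.28 (limma adjusted p = 0.41) and Flt1 at -0.02 (0.95) with mouse number, neither was called with the first principal component, and Lyve1 alone was without the 6 arrays. Klrd1 and Cd8b1 were called in none of the 4 alternative fits, H2-DMa with mouse number alone, and Lipe in all 4. None of 7 pancreatic acinar or 11 skeletal muscle markers passed, with 1 and 1 at an unadjusted p under 0.05. The mean over the pancreatic markers reached 3.54 in 1 or more high-Cyp7a1 mice against at most -0.13 in low-Cyp7a1 mice, and that over the muscle markers reached 4.22 in high-Cyp7a1 mice and 2.73 in low-Cyp7a1 mice. Of 7 general hepatocyte genes Apoc3 and Ttr (0.69) rose, and Alb (-0.30) and Fgb (-0.24), which share one value on most arrays, did not pass. Ttr was not called with mouse number, without the 6 arrays or with the first principal component.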
